A study of Caenorhabditis elegans with 4 samples.

Results

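Isolated NURF-1 peaks are sites of the chromatin remodelling protein NURF-1 that stood alone on a Caenorhabditis elegans chromosome. The members were chosen by their measured positions in the series-wide peak list: a nuclear peak was kept when the gap to the next peak was at least 20000 bp on both sides, and the first and last peak of each chromosome were left out. This gave 421 isolated peaks out of 7494 nuclear peaks (7512 with the mitochondrial ones), a share of 5.62% (Wilson 95% interval 5.12 to 6.16). The remaining 7073 nuclear peaks are called the other peaks here. Because position chose the members, every comparison with the other peaks is a description without a test. Wilson intervals of shares and order-statistic intervals of medians cover counting error only.

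The study profiled N2, the wild-type laboratory strain, as L3 larvae at 20 degrees Celsius, in a mixed population of males and hermaphrodites. There were 4 samples, 2 of NURF-1 ChIP with the polyclonal rabbit antibody SDQ3525 and 2 of input DNA. All samples share that strain, stage and growth. The files used here are 3 peak lists, 1 per ChIP replicate and 1 for the series. They come from whole larvae, so a site used in few cells and a weak site in many cells cannot be told apart. The labels do not say that the replicates were grown apart, so differences between them may be technical.

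NURF-1 is the worm counterpart of BPTF, the large scaffold subunit of the NURF complex. NURF pairs this subunit with an ISWI-type ATPase, uses ATP to slide nucleosomes along DNA, and can be brought to chromatin by modified histone tails that BPTF-like proteins read. Worm autosomes have gene-dense, slowly recombining centres and repeat-rich, faster recombining arms, while the X is more uniform and is subject to dosage compensation in hermaphrodites.

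NURF-1 peaks were usually close together, and solitary ones were the exception. The median gap between neighbouring series-wide peaks was 5128 bp, and 20.7% of the 7488 gaps reached 20 kb. Around an isolated peak the nearer neighbour lay at a median distance of 28296 bp (27115 to 29515) and the farther one at 49119 bp (46256 to 54408). The stretch between the neighbouring peaks, with the isolated peak inside it, had a median length of 81395 bp. By nearer gap, 238 members lay between 20 and 30 kb from a neighbour, 150 between 30 and 50 kb, and 33 at 50 kb or more.

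Coordinates are given on WormBase WS220. Just inside the threshold were peaks on chromosome III at 2528218 to 2529270 (nearer gap 20031 bp, score 132), and on chromosome V at 5619365 to 5619865 (20066 bp, score 49.8) and 5639932 to 5640175 (20066 bp, score 8.27). The pair on V are each other's nearer neighbour. Just outside were peaks on chromosome IV at 10221846 to 10222775 (19994 bp, score 71.3) and 1399530 to 1399715 (19983 bp, score 6.70), and on X at 7661473 to 7661913 (19886 bp, score 65.5). Strong and weak peaks thus lay on either side of the threshold.

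The X chromosome held more of the isolated peaks than of the others. It carried 109 of the 421, or 25.9% (21.9 to 30.3), against 676 of the 7073 other peaks, or 9.56% (8.89 to 10.3). Chromosome V carried 100 isolated peaks, IV 77, II 57, I 42 and III 36. On X 13.9% of peaks were isolated (11.6 to 16.5), on V 8.55% (7.08 to 10.3), on IV 5.60% (4.51 to 6.95), on II 4.96% (3.85 to 6.37), on I 2.68% (1.99 to 3.60) and on III 2.49% (1.80 to 3.42). The intervals of IV and II overlapped, as did those of I and III, while X lay above every autosome.

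The order of these shares was close to the reverse of peak density. The series-wide list had 105 peaks per Mb on III, 104 on I, 78.5 on IV, 75.2 on II, 55.9 on V and 44.3 on X. Isolated peaks alone numbered 6.15 per Mb on X, 4.78 on V, 4.40 on IV, 3.73 on II, 2.79 on I and 2.61 on III. X had the fewest peaks and the most isolated peaks per Mb, while II had fewer of both than IV. The part of density in these numbers was not tested. Gaps of 20 kb or more took up 80.9% of X, 77.2% of V, 66.7% of II, 65.3% of IV, 50.6% of III and 49.9% of I.

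**Figure D1:**
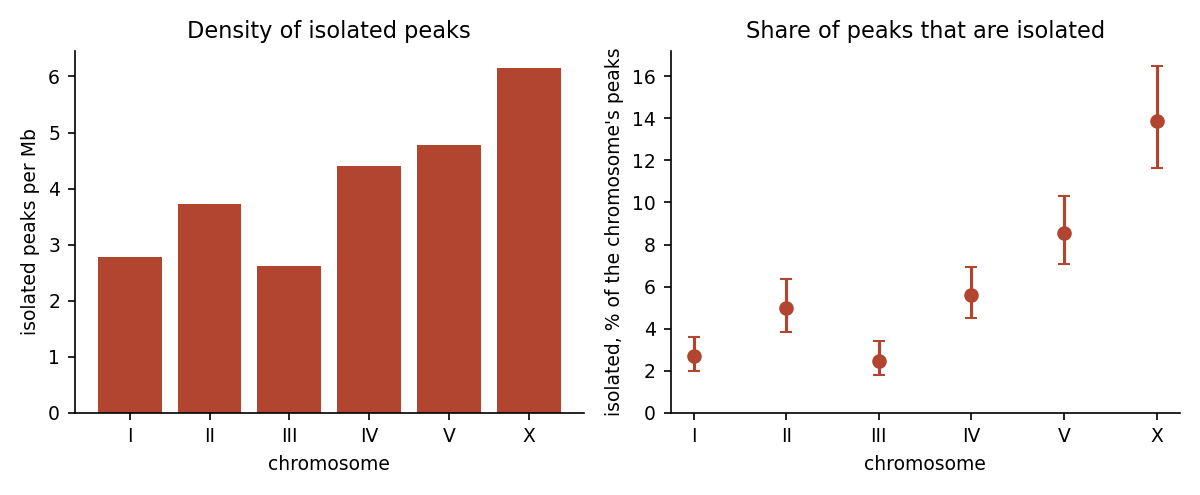
Isolated NURF-1 peaks per Mb (left, bars) and as a share of the chromosome's series-wide peaks (right, points with Wilson 95% intervals) for the 6 nuclear chromosomes. X is highest on both scales, at 6.15 per Mb and 13.9%, and III lowest, at 2.61 per Mb and 2.49%.

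Placement along the chromosome differed between the autosomes and X. Arms were taken as the outer 25% of a chromosome at either side and the centre as the inner 50%. On autosomes 178 of 312 isolated peaks lay in arms, 57.1% (51.5 to 62.4), against 47.9% of the 6397 other peaks (46.7 to 49.1). On X 48 of 109 lay in arms, 44.0% (35.1 to 53.4), against 62.3% of the 676 other peaks (58.6 to 65.9). Over all chromosomes the share was 53.7% of isolated peaks (48.9 to 58.4) and 49.3% of the other peaks (48.1 to 50.4). The size of that pooled contrast moved with the gap and the list. With a gap of 10000 bp it was nearly absent, at 49.8% (46.9 to 52.7) against 49.5%. With 30000 bp it was 53.0% (45.8 to 60.1) against 49.4%. Leaving out scores under 10 gave 53.7% against 42.5%, and merging runs of peaks under 2000 bp apart gave 54.7% against 47.1%. In the replicates' own lists it was 54.4% against 47.6% in replicate 1 and 51.7% against 44.3% in replicate 2.

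The same reversal was seen per Mb. Autosomal arms held 4.31 isolated peaks per Mb and autosomal centres 3.25, although all peaks together were slightly denser in centres (84.0 per Mb) than in arms (78.5). The arms of X held 5.42 isolated peaks per Mb and its centre 6.89, where all peaks together were sparser (35.7 per Mb against 52.9 in the arms). In the centre of X 61 of 316 peaks were isolated, 19.3% (15.3 to 24.0), against 10.2% in its arms (7.81 to 13.3). In autosomal centres the share was 3.87% (3.27 to 4.56) and in autosomal arms 5.49% (4.76 to 6.33).

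**Figure D2:**
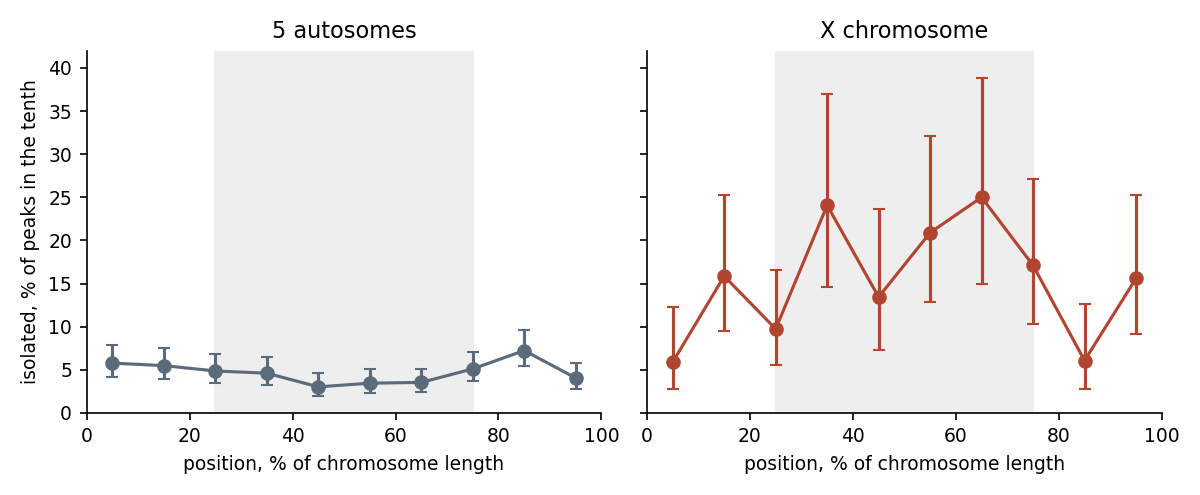
Share of series-wide NURF-1 peaks that were isolated, in 10 equal steps of chromosome length, for the 5 autosomes pooled (left) and X (right). Bars are Wilson 95% intervals and grey marks the centre; on autosomes the share is lowest, 3.01%, from 40 to 50% of the length, and on X it reaches 25% from 60 to 70%.

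Single autosomes were uneven, and the arms of I and III held unequal numbers. Isolated peaks in the left arm, centre and right arm numbered 7, 17 and 18 on I. They numbered 16, 26 and 15 on II, and 17, 13 and 6 on III. On IV the numbers were 21, 37 and 19, and on V 29, 41 and 30. Chromosome V had the highest arm shares of the autosomes: 11.0% of the left-arm peaks (7.79 to 15.4) and 12.3% of the right-arm peaks (8.79 to 17.1) were isolated, against 6.17% of the peaks in its centre (4.58 to 8.27). Arm share was higher among isolated than among other peaks on I, II, III and V, while on IV it was 51.9% for isolated and 52.8% for other peaks. With 36 to 100 members an autosome, the intervals of the isolated and other arm shares were apart on V alone, at 59% (49.2 to 68.1) and 41.8% (38.9 to 44.8).

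About as many isolated peaks stood next to another isolated peak as stood by themselves. A row here is a series of consecutive peaks that were all isolated, which are neighbours of each other at over 20 kb. Of the 421 members, 212 were single and 209, or 49.6%, belonged to 81 rows of 2 or more. These counts use the same gaps as the rule and are a description. Within chromosomes, the share of gaps of 20 kb or more was 28.5% after a gap that long and 17.4% after a shorter one on IV, and 20.3% and 12.1% on I. It was 38.8% and 34.3% on X and 17.8% and 13.3% on III. On V (29.8% and 28.5%) and II (22.4% and 22.2%) the shares were nearly equal.

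Both of the longest rows were on X and had 7 peaks. The first ran from 3245581 to 3650795 and spanned 405 kb, and 6 of its 7 peaks were found in both replicates. Their scores in order along the chromosome were 54.8, 34.9, 23.7, 16.6, 4.66, 40.9 and 45.6, and the weakest, 169 bp wide, was found in neither replicate. The second ran from 12480334 to 12758088 and spanned 278 kb, with 3 of 7 peaks in both replicates and scores from 3.03 to 41.6. Rows of 5 lay on II at 12459463 to 12651608 and on IV at 3874524 to 4014798, each with 3 of its 5 peaks in both replicates. A row of 4 on V, at 3803473 to 4029168, had scores of 3.85 to 6.70 and no peak in both replicates. A row of 4 at 3194979 to 3347003 on the same arm had scores of 21.7 to 42.3 and all 4 in both, so a long row could be strong or weak.

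In the list as deposited, isolated peaks did not rank below the others. The deposited score was used only to rank peaks within a list. On a scale where 100% is the highest-scored nuclear peak, the median rank of isolated peaks was 54.3% (46.6 to 59.6) and that of the other peaks 49.9% (48.7 to 51.0). Scores above the list's median were held by 223 of the 421, 53.0% (48.2 to 57.7), against 49.8% of the other peaks (48.7 to 51.0). These intervals overlapped. With runs of peaks under 2000 bp apart merged, the direction turned, at 46.4% (42.5 to 51.9) for isolated and 50.3% for other regions. On X isolated peaks had a median rank of 63.0% (46.6 to 70.4) against 48.8% for other X peaks (45.6 to 52.1). The median rank was higher for isolated peaks on 4 of the 6 chromosomes, with III (40.0% against 50.9%) and V (44.1% against 48.0%) as the exceptions.

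Isolated peaks scored higher in centres than in arms, as the other peaks did. In arms the median rank was 45.6% for isolated (39.6 to 53.9) and 43.7% for other peaks (42.4 to 45.2), and in centres 63.7% (54.9 to 69.5) and 56.1% (54.7 to 57.8). Within either domain the intervals of isolated and other peaks overlapped. By distance, the median rank was 55.9% (45.8 to 64.4) at 20 to 30 kb, 52.9% (44.1 to 61.8) at 30 to 50 kb and 46.2% (25.4 to 66.0) for the 33 peaks at 50 kb or more, with overlapping intervals.

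**Figure D3:**
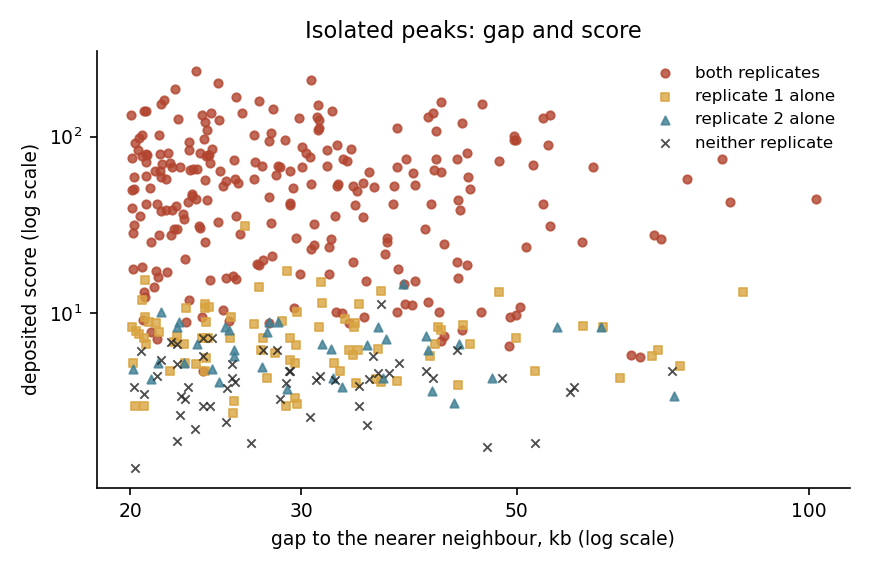
Deposited score against the gap to the nearer neighbour for the 421 isolated peaks, both on log scales, with symbols for the replicates in which a peak was found. Strong and weak peaks occur at short and long gaps alike, and the 54 peaks found in neither replicate all score 11.3 or less.

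Very strong isolated sites existed and were found by both ChIP replicates. The strongest lay on chromosome II at 9745738 to 9746656. It was rank 5 of the nuclear series-wide peaks (score 237, 919 bp), rank 7 in replicate 1 and rank 22 in replicate 2, with empty stretches of 26601 bp and 23362 bp at its sides. The strongest on X, at 5952940 to 5953675, was rank 16 series-wide (score 209, 736 bp), 43 in replicate 1 and 64 in replicate 2, and its gaps were 105357 and 30702 bp. On V the peak at 12317939 to 12318745 was rank 25 (score 202, 807 bp), 28 in replicate 1 and 60 in replicate 2. All 3 were themselves isolated in each replicate's own list.

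The next of the 5 strongest were on II at 8184895 to 8185544 (rank 57, score 185) and on V at 15511424 to 15512230 (rank 129, score 167). The strongest isolated peaks of the remaining chromosomes were lower in the list: on I at 8369392 to 8370285 (rank 166, score 161), on III at 2528218 to 2529270 (rank 411, score 132) and on IV at 5847781 to 5848486 (rank 430, score 130). Each of these was found in both replicates. Isolated peaks made up 1 of the 10 and 4 of the 100 highest-scored nuclear peaks, where their share of all nuclear peaks was 5.62%.

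The most remote peak lay on X at 6504989 to 6505571, 125974 bp from its left and 101516 bp from its right neighbour. It was 583 bp wide with a score of 44.2, and ranked 1964 in replicate 1 and 2679 in replicate 2. Its left neighbour at 6378055 to 6379014 (score 74.9, nearer gap 81289 bp) was also among the 5 most remote, and both were in the same row of 4. The others were on IV at 16759456 to 16759653 (score 13.2, 85555 bp), on V at 3194979 to 3195503 (score 42.3, 82789 bp) and on X at 11414672 to 11415623 (score 57.7, 74853 bp). The peak on IV, 198 bp wide, was found in replicate 1 alone, and the other 4 in both replicates.

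Most isolated peaks were found again in the lists of the single replicates. In the series-wide list as deposited, their shares were close to those of all nuclear peaks. A peak counted as found when it shared at least 1 bp with a replicate peak. In replicate 1, 330 of 421 were found, 78.4% (74.2 to 82.1), where the share over all nuclear peaks was 77.6%. In replicate 2, 282 were found, 67.0% (62.4 to 71.3), against 64.9% over all nuclear peaks. Both replicates held 245, 58.2% (53.4 to 62.8), against 58.0% over all. Neither held 54, 12.8% (9.97 to 16.4), against 15.4% over all. The other peaks gave 77.6%, 64.8%, 58.0% and 15.6%, inside each of these intervals. That closeness was lost when runs of peaks under 2000 bp apart were merged, where the other regions lay above the isolated intervals. Isolated regions then had 82.3% in replicate 1 (78.8 to 85.2) against 85.3%. In replicate 2 they had 70.7% (66.8 to 74.4) against 75.2%, and in both 63.6% (59.5 to 67.5) against 70.0%. The series-wide list names no sample, but its peak names carry the antibody and stage of the ChIP samples. It is taken here as made from the same libraries, so these shares are no independent check.

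Finding a peak again depended on its score, for isolated and other peaks alike. The nuclear list was divided by score into 10 classes of about equal size. In the 3 highest classes all 56, 56 and 36 isolated peaks were in both replicates. In class 7 40 of 41 were, in class 6 26 of 34 (76.5%, 60.0 to 87.6), in class 5 19 of 33 and in class 4 8 of 48 (16.7%, 8.70 to 29.6). The other peaks of classes 6 and 4 gave 87.1% (84.5 to 89.4) and 25.6% (22.5 to 29.0). Isolated peaks had the lower share in 7 of the 10 classes. In the 3 highest classes both groups were at 100%, so no difference was possible there. These tied classes are part of the average and draw it towards 0. Averaged over all 10 classes by the isolated peaks' numbers, the difference was -2.64 percentage points (approximate 95% interval -5.36 to 0.07). That interval takes in 0. With a gap of 10000 bp the difference was -2.03 points (-3.70 to -0.37), which does not, and with 30000 bp it was -0.51 points (-5.09 to 4.07).

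**Figure D4:**
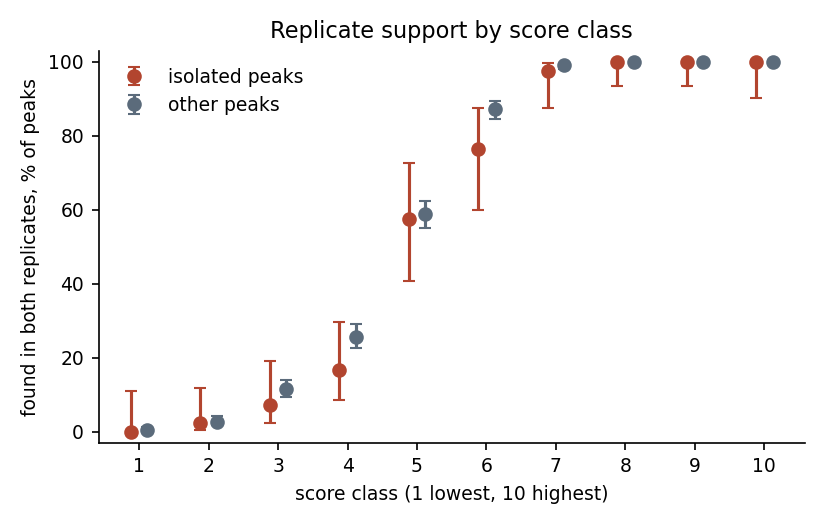
Share of peaks found in both ChIP replicates by score class, for isolated peaks (red) and other nuclear peaks (grey), with Wilson 95% intervals. Both rise from near 0% in class 1 to 100% in classes 8 to 10. Isolated peaks lie lower in classes 1 to 7, most of all in classes 4 and 6, with overlapping intervals.

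Isolated peaks found in 1 replicate or none were weak and narrow. The 85 found in replicate 1 alone were typically 215 bp wide with a median score of 7.23, and the 37 found in replicate 2 alone were typically 198 bp wide with a median score of 6.22. The 54 found in neither had scores of 1.32 to 11.3 and widths of 146 to 411 bp, with medians of 4.20 and 165.5 bp, and 9 of them were on X. Much broader were the 245 found in both, with a median width of 514 bp at a median score of 52.5. The other peaks in replicate 1 alone, in replicate 2 alone, in neither and in both had median widths of 241, 223, 179 and 601 bp, so the order was shared.

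Where a replicate held an isolated peak, it usually held it as 1 peak, and as an isolated one. Among the 330 found in replicate 1, 7 were split over 2 or more replicate peaks (2.12%, 1.03 to 4.31), against 5.05% of the other peaks (4.50 to 5.66). In replicate 2 the shares were 3.19% of 282 (1.69 to 5.95) and 6.92% (6.22 to 7.69). The centre of the replicate peak lay a median of 15 bp from that of the isolated peak in replicate 1 and 22.5 bp in replicate 2. It lay 21 and 29.5 bp away for other peaks. The other peaks were also wider (median 385 bp against 338 bp), and neither splitting nor distance was compared at equal width. In replicate 1's own list 302 of the 330 also met the 20 kb rule, and in replicate 2's 265 of 282. Of the other peaks found there, 2.95% in replicate 1 and 5.54% in replicate 2 met it. In all, 212 peaks were isolated in all 3 lists. The lists are taken to share libraries, and the replicate lists held few peaks that the series-wide list lacked. These counts thus follow largely from the rule and are no independent check.

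Applying the rule to 1 replicate and reading the other keeps the choice and the readout in separate libraries. Replicate 1 had 476 isolated peaks among 6319 nuclear ones, and 347 of them (72.9%, 68.7 to 76.7) were found in replicate 2, against 71.6% of its other peaks (70.4 to 72.7). Replicate 2 had 532 among 5354, and 455 of them (85.5%, 82.3 to 88.3) were found in replicate 1, against 86.9% of its other peaks (86.0 to 87.9). At equal score class the isolated peaks had the lower share, by a difference of -3.87 percentage points (-6.81 to -0.93) for replicate 1's and -4.36 points (-7.08 to -1.64) for replicate 2's. Their scores were somewhat higher, with median ranks of 57.9% (55.8 to 61.9) and 57.2% (53.0 to 61.6), against 49.2% and 49.0% for the other peaks.

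The placement described above was also present in each replicate's own list. X held 126 of replicate 1's 476 isolated peaks (26.5%) and 117 of replicate 2's 532 (22.0%), against 8.83% and 8.94% of the other peaks. On autosomes 56.3% of replicate 1's isolated peaks were in arms (51.0 to 61.4) and 46.4% of its other peaks, and 52.5% (47.7 to 57.3) and 42.8% in replicate 2. On X the order was the reverse in both, at 49.2% (40.6 to 57.8) against 60.3% (56.0 to 64.4) in replicate 1 and 48.7% (39.8 to 57.7) against 60.1% (55.4 to 64.6) in replicate 2. The intervals on X overlapped in both replicates.

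Isolated peaks were narrower than others of like score. Their median width was 338 bp (300 to 384) against 385 bp (374 to 396) for the other peaks, with quartiles of 209 and 552 bp. Width rises with score, and within score classes isolated peaks were narrower in 9 of 10. The exception was class 1, the lowest, at 204 bp (175 to 238) for isolated and 189 bp (185 to 194) for other peaks. In 4 classes the intervals of the medians were apart: in class 3 the medians were 184 and 218 bp, in class 7 416 and 521 bp, in class 8 543.5 and 626.5 bp, and in class 9 604.5 and 711 bp. Averaged over classes, the median width was 387 bp for isolated and 445 bp for other peaks. In the highest class they were 847 and 848 bp.

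The same narrower width was read in the replicate that the rule had not used. Only peaks found in the other replicate have a width there. The 347 such peaks isolated in replicate 1 had, at equal score class, an averaged median width of 409 bp in replicate 2. The 4182 other peaks had 447 bp, and the isolated ones were narrower in 8 of 10 classes. The 455 such peaks isolated in replicate 2 had 480 bp in replicate 1 against 526 bp for the 4192 other peaks, and were narrower in 10 of 10.

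By chromosome the series-wide widths pointed the same way on autosomes and the other way on X. Isolated peaks had the lower median on all 5 autosomes, from 246.5 against 399.5 bp on III to 374 against 398 bp on II. On X the median was 420 bp (307 to 474) for isolated and 362.5 bp (333 to 388) for other peaks. These intervals overlapped, as they did on each autosome. At equal score class isolated X peaks were the narrower ones (380 against 416 bp), and so were isolated autosomal peaks (390 against 440 bp). Without regard to score, the lower autosomal median was not present in either replicate's own list, and the X medians were within 10 bp of each other. There the autosomal medians of isolated and other peaks were 374 and 374 bp in replicate 1 and 367 and 365 bp in replicate 2, and the X medians 347.5 and 350.5 bp in replicate 1 and 336 and 326 bp in replicate 2.

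**Figure D5:**
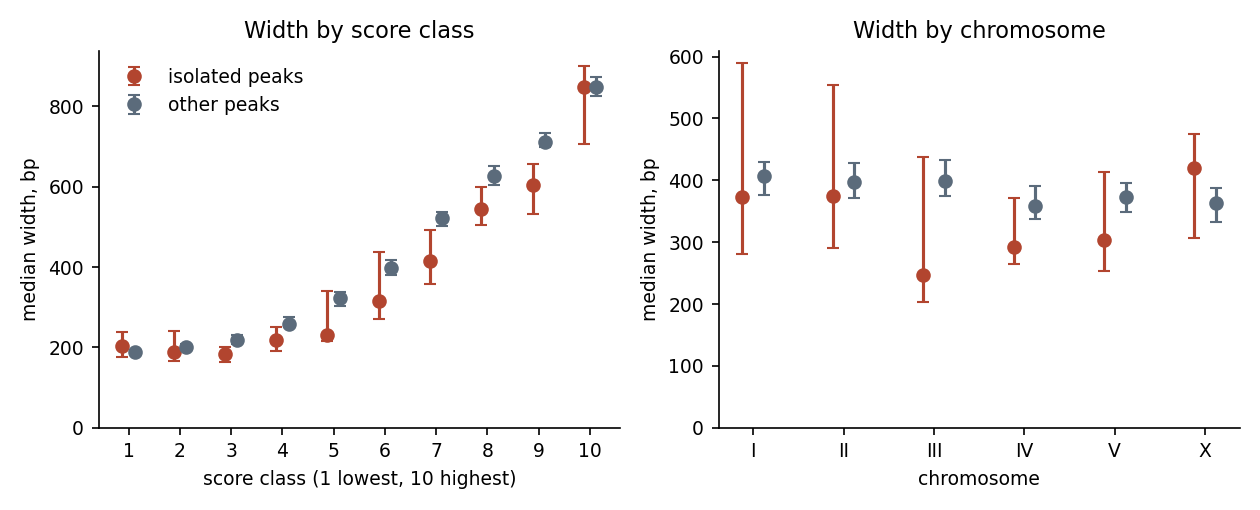
Median width in bp of isolated (red) and other (grey) series-wide NURF-1 peaks by score class (left) and by chromosome (right), with order-statistic 95% intervals. Isolated peaks are narrower in 9 of 10 score classes and on the 5 autosomes, and wider on X at 420 against 362.5 bp.

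A width of 1000 bp or more was reached by 16 of the 421 isolated peaks, 3.8% (2.35 to 6.08), and by 558 of the other peaks, 7.89% (7.28 to 8.54). The widest lay on II at 12649396 to 12651608 and covered 2213 bp with a score of 17.7. It overlapped 2 peaks in replicate 1 and 3 in replicate 2, so either replicate divided this broad site. The highest-scored of those were 698 bp wide in replicate 1 and 545 bp in replicate 2. The next lay on I at 11964380 to 11966149 (1770 bp, score 79.0), and overlapped 2 peaks in each replicate. The third, on II at 10247250 to 10248882 (1633 bp, score 153), was a single peak of 1509 bp in replicate 1 and 1534 bp in replicate 2, with gaps of 46013 and 51907 bp at its sides. Of these 3 it was the one that both replicates held as 1 unit. The widest of the other peaks covered 11059 bp.

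The other peaks were not of a kind, and the comparison changed with how close their neighbours were. The 2837 peaks with a neighbour under 1 kb away were the weakest class, with a median rank of 39.6% (38.0 to 41.4), a median width of 346 bp (336 to 359) and 48.3% in both replicates (46.5 to 50.1). The 2507 peaks with the nearest neighbour at 1 to 5 kb had a median rank of 58.3% (56.2 to 60.0), a width of 442 bp (421 to 457) and 65.1% in both (63.3 to 67.0). The 1725 at 5 to 20 kb had 57.5% (54.9 to 60.3), 391 bp (374 to 418) and 63.4% (61.1 to 65.6). Isolated peaks, at 54.3%, 338 bp and 58.2%, were close to the first class in width and lay between the first and the others in rank and in replicate support. Against peaks at 1 to 5 kb, isolated peaks were the narrower and were less often in both replicates, with intervals apart for both measures. The intervals of rank overlapped there. Against peaks at 5 to 20 kb, the class nearest to the isolated peaks in spacing, the intervals overlapped for rank, width and replicate support.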

How the data were processed

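NURF-1 ChIP-seq peaks of 2 ChIP replicates and of the series were analysed as deposited by the authors, with chromosome, start, end and a score per peak. Per the file headers, coordinates are on WormBase WS220 and peaks carry the label MACS. BWA and ce10 are named in the submitters' processing notes. Tool versions, threshold, control, the score's scale and how replicates were combined were nowhere given in the sources used here. The deposited lists hold no read counts, so depth is unknown. Input samples had no list analysed here.

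Gaps, overlaps and medians were computed with pandas 2.3.3 and numpy 2.4.6 under Python 3.11.15. Intervals came from scipy 1.17.1, and figures from matplotlib 3.10.9. Chromosome lengths are the last base under a peak in any list. The functions were tested on simulated lists. Differences at equal score class are weighted by the isolated peaks' numbers.

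The members and measures were chosen with earlier results of these data known. Named peaks follow a fixed rule: the strongest per chromosome, the 5 strongest, the 5 most remote, the 3 widest and 3 at either side of the threshold; rows of isolated peaks were named after their values were seen. Annotation and sequence of this build were not used here, so no gene or sequence is given.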

Additional observations from a re-analysis of the deposited data

How the results depend on the processing

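Of 84 recomputed values under 11 settings, 62 stayed within 1.5 times (the number of peaks) or within the reported interval. The number of isolated peaks was 1142 with a gap of 10000 bp and 183 with 30000 bp, and the X share was 20.9% with the former. Without scores under 10, isolated peaks were found at 98.5% in replicate 1, 94.3% in replicate 2 and 93.1% in both. The other peaks gave 99.1%, 94.2% and 93.4%, so the rise was shared. The median width was 552 bp (other peaks 606 bp) and 20.9% lay on X (other peaks 8.84%). For peaks isolated within replicate 1 and replicate 2 the shares found in the other were 95.7% and 99.5% (other peaks 95.7% and 99.4%). Merging runs under 2000 bp gave 82.3% in replicate 1 (other regions 85.3%) and 63.6% in both (other regions 70.0%). In replicate 2 it gave 70.7% (other regions 75.2%). The median width was then 471 bp (other 613 bp). The median rank was 46.4% (other 50.3%), so the order of the ranks turned. Requiring 50% of a peak's width to overlap gave 61.5% in replicate 2 (other peaks 58.5%) and 52.0% in both (other peaks 50.5%). For peaks isolated in replicate 1 it gave 68.3% found in replicate 2 (other peaks 65.1%). Arms taken as the outer 33.3% at either side held 69.4% (other peaks 66.2%). Leaving out a replicate applied the rule to the list that was kept. The share found in the other replicate then stands for the share in both. It was 85.5% in replicate 1 (other peaks 86.9%) and 72.9% in replicate 2 (other peaks 71.6%). The X share exceeded that of the other peaks in each setting that changed which peaks were isolated. No paired analysis was made: no result comes from a test between groups, and input samples had no list analysed here. Depth is unknown, so weak peaks missed in a replicate cannot be told from absent ones.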

Other observations

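A few replicate peaks that the series-wide list lacks lay inside the stretches that make a peak isolated. Replicate 1 had 211 such nuclear peaks, of which 25 lay within 20 kb of an isolated peak, and replicate 2 had 111, of which 16 did. They touched 40 of the 421 members, and 381 members (90.5%) were free of neighbours for 20 kb in all 3 lists. The highest score among the nuclear peaks that the series-wide list lacks was 9.20 in replicate 1 and 8.27 in replicate 2.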
